A study of Mus musculus with 6 samples.

Results

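The S100 calcium-binding proteins described here are 8 genes of a table of 53647, chosen by symbol: S100a1, S100a4, S100a6, S100a8, S100a9, S100a10, S100a11 and S100a13. Each symbol matched 1 row, and 7 of the 8 had counts above 0. Their transcripts were measured by RNA sequencing of macrophages taken from orthotopic pancreatic ductal adenocarcinomas, that is, tumours placed in the pancreas of C57BL/6 mice. The macrophages had been sorted by Cxcr4, the receptor for the chemokine Cxcl12, into Cxcr4+ cells (3 libraries) and Cxcr4- cells (3 libraries). All 6 libraries shared the strain and the tumour model; the sources used here do not give the tumour cells, the age of the mice or the antibodies of the sort. Whether each library of a group had its own mouse is not in the labels, and p-values here describe the spread from library to library, which may be technical. In bulk RNA a lower level can come from fewer cells of a type or from less RNA per cell, and these cannot be told apart.

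S100 proteins are small proteins with a pair of calcium-binding EF-hand loops, and most work as dimers that open a hydrophobic face when calcium rises and then grip a partner protein. Inside cells they act on annexins, myosin and other partners. Some are released by myeloid cells and act as alarmins on receptors such as Tlr4 and Ager (RAGE). S100a8 and S100a9 together form calprotectin, which binds zinc and manganese and is among the most abundant cytosolic proteins of neutrophils. S100a4 is known in tumour biology as metastasin and in tissue staining as fibroblast-specific protein, although macrophages make it too.

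Libraries held 46444934 to 55740671 estimated counts, and the 8 genes together took 0.127 to 0.150% of them. Macrophage transcripts were abundant in both groups: Lyz2, the macrophage lysozyme, averaged 6820 ± 891 FPKM (fragments scaled to gene length and library depth) in Cxcr4+ cells and 5868 ± 630 FPKM in Cxcr4- cells (SD, n = 3 each). Of the 13 macrophage markers, Cd163 was listed at 0 in all 6 libraries, and Mrc1, C1qa, C1qb and C1qc averaged under 1 FPKM in both groups. Cxcr4 itself, the gene of the sort, had 9.18, 9.04 and 9.59 FPKM in Cxcr4+ libraries, against 8.56, 5.97 and 7.73 FPKM in Cxcr4- libraries; its log2 fold change was 0.27 (SE 0.19, edgeR adjusted p = 0.999). The library numbered 2 of each group stood somewhat apart from the others: a chi-square of their counts, per degree of freedom, was 15.04 between these libraries, 18.6 to 29.2 between either and the other 4, and 10.6 to 16.1 among those 4. Fold changes without them are given beside S100a4, S100a10, S100a1, S100a13 and S100a8.

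All 8 genes lie on chromosome 3, where most mouse S100 genes form a cluster. In the GRCm39 coordinates of the deposited table, S100a1 (90418341 to 90421699, minus strand) and S100a13 (90421742 to 90431888, plus strand) stand back to back, 43 bases apart. S100a4 (90511078 to 90513352), S100a6 (90520189 to 90531488) and S100a8 (90576285 to 90577342) follow on the plus strand, and S100a9 (90599939 to 90603028) lies beyond them on the minus strand. S100a11 (93427795 to 93433594) and S100a10 (93462387 to 93471950), both on the plus strand, lie farther along the same chromosome.

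Promoter windows of RefSeq, 250 bases before to 50 bases from the start of each gene, were found for 7 of the 8 genes, all but S100a10; their coordinates are on GRCm38.p6 and not on the build of the table. They are shown because genes of 1 cluster stood at very different levels in these macrophages. Capitals mark exact matches on either strand to TATAAA, TTNNGNAA (C/EBP type), TGANTCA (AP-1 type) and GAGGAA (PU.1 type), motifs that 13.6%, 40.7%, 7.81% and 28.3% of all 32851 windows hold. The first pair is S100a4 (chr3:90603520-90603819, plus strand) and S100a11 (chr3:93520246-93520545, plus strand), the members with the highest levels; the next is S100a8 (chr3:90668821-90669120, plus strand) and S100a9 (chr3:90695672-90695971, minus strand), those with the lowest.
S100a4: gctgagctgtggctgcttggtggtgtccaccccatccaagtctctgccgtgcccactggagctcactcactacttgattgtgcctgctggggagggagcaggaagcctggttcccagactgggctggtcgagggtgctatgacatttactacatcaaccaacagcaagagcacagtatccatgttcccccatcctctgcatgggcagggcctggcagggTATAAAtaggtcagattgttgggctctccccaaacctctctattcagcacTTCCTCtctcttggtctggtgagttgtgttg
S100a11: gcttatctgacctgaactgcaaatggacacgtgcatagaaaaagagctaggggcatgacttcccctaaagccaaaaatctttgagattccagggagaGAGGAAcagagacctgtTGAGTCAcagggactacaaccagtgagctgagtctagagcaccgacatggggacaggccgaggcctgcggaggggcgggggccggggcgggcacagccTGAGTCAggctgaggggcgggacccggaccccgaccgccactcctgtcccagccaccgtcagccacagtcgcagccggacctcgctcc
S100a8: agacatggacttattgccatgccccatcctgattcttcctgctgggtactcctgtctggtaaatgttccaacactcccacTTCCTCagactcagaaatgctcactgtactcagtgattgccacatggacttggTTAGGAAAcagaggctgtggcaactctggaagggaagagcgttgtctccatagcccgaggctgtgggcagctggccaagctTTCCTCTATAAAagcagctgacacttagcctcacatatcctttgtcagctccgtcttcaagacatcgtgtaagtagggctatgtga
S100a9: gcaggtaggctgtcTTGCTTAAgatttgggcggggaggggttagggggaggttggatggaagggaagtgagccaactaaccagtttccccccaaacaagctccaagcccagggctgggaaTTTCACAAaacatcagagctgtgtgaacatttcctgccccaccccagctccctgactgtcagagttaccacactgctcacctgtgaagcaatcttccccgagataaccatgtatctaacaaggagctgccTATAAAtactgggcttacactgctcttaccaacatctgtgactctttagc
With the start base as position 0, the TATAAA of S100a4 began at position -31 and that of S100a8 at position -30, and in the S100a8 window the letters of a PU.1-type match run into it. The S100a9 window held TATAAA at position 0, that is, at the start that RefSeq gives. S100a11 had no TATAAA and 2 AP-1-type matches, while C/EBP-type matches were found in the windows of S100a8 and S100a9 and not in the others. A match of letters is a description and not a binding site. The windows of S100a1, S100a6 and S100a13 held none of the 4 motifs.

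The promoter windows of S100a13 and S100a1 overlap, with 204 bases in common, and whether the genes share a promoter was not tested. Their RefSeq starts lie farther apart than the 43 bases between the genes in the GRCm39 coordinates above. The S100a13 window (chr3:90514185-90514484, plus strand) is shown with the 104 bases between the starts of both genes in capitals.
S100a13: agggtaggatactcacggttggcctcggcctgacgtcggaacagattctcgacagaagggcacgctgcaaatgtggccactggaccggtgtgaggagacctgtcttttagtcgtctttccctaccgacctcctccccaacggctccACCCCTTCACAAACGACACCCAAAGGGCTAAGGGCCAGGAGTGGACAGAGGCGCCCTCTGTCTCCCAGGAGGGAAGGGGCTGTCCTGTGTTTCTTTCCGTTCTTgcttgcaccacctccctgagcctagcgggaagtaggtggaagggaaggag
The capital stretch was 58.7% G or C, and the median of all windows was 52.7%. S100a1 is read to the left of it and S100a13 to the right, and in these macrophages the level of S100a1 was 3.94 times that of S100a13.

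By FPKM, the members fell into steps. S100a4 averaged 631 FPKM over the 6 libraries and was rank 93 of all genes in the table, and S100a11 averaged 600.1 FPKM and was rank 99. These neighbours did not differ beyond their spread: S100a4 was the higher of both in 3 of 3 Cxcr4+ libraries and in 2 of 3 Cxcr4- libraries. Below them came S100a10 at 237 FPKM, S100a6 at 145 FPKM, S100a1 at 86.8 FPKM, S100a13 at 21.999 FPKM and S100a8 at 6.57 FPKM, and from S100a11 down the ranges over the 6 libraries did not touch. The widest steps were from S100a1 to S100a13 (3.94-fold), from S100a13 to S100a8 (3.35-fold) and from S100a11 to S100a10 (2.53-fold). S100a9 was listed at 0 throughout.

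**Figure D1:**
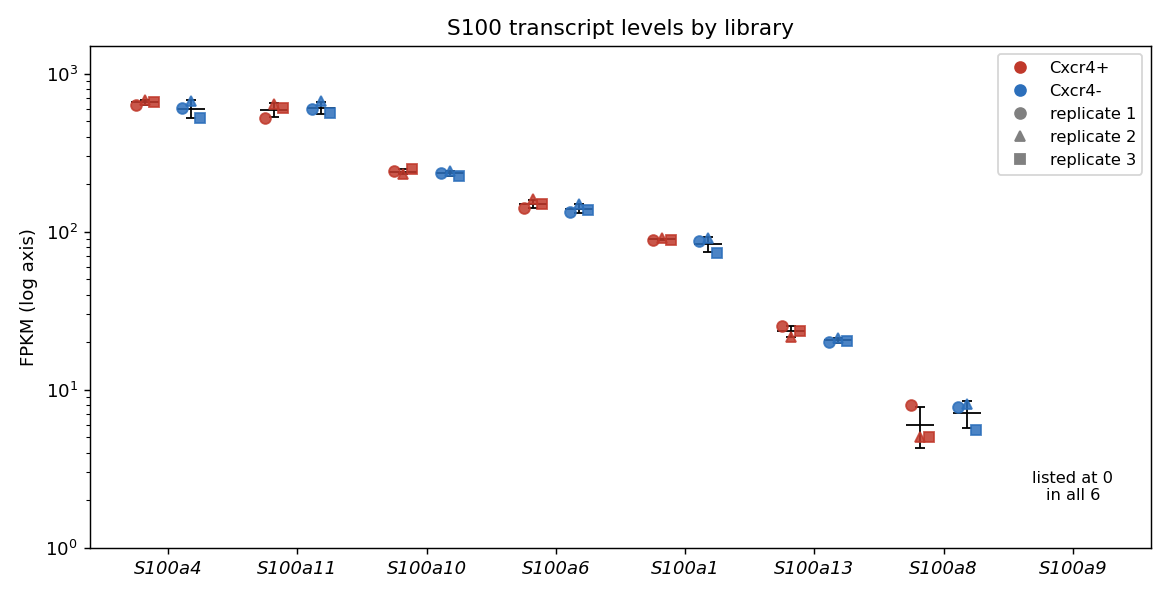
FPKM of the S100 genes on a log axis, with Cxcr4+ libraries in red left of Cxcr4- libraries in blue; bars are the mean and SD of 3 libraries, and marker shapes give the replicate number. The levels fall in steps from S100a4 and S100a11, at about the same height, to S100a8, while the red and blue points of a gene lie close together; S100a9 is listed at 0 in all 6 libraries.

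**Figure D2:**
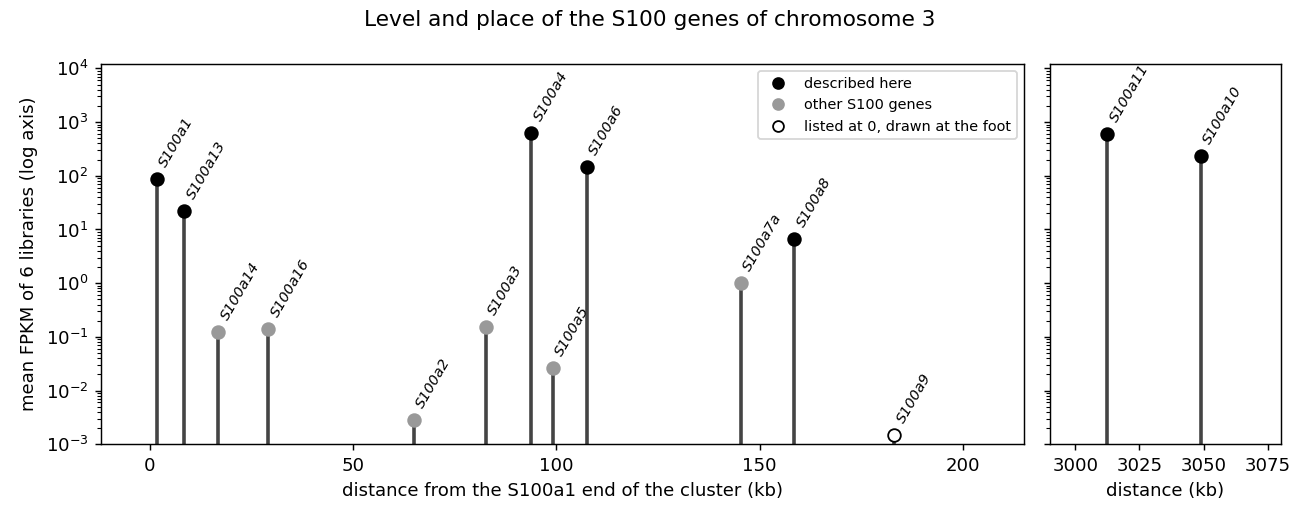
Mean FPKM of the 6 libraries on a log axis, against the distance in kb from the S100a1 end of the cluster on chromosome 3, with a break before S100a11 and S100a10. Members are black and other S100 genes grey; genes of very different level are neighbours, as S100a4 beside S100a3 and S100a5. S100a9, listed at 0, is an open circle at the foot, and S100a7l2, also at 0, is not drawn.

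The design has 1 comparison, Cxcr4+ against Cxcr4- macrophages, which asks what sets the Cxcr4+ cells apart. No S100 gene passed the test in it: 0 of the 7 members tested had an adjusted p under 0.05 by edgeR's quasi-likelihood test over 16031 genes, 0 had an unadjusted p under 0.05, and DESeq2 called 0 as well. The background was low, with 5 genes called, or 0.0312%, of which 2 were higher in Cxcr4+ cells (0.0125%) and 3 lower (0.0187%); 777 genes (4.85%) had an unadjusted p under 0.05. DESeq2 called 53 genes in all. In 1662 of the genes that edgeR tested (10.4%) the FPKM of the groups did not overlap, in either direction. Of the 7 members, 5 had a positive and 2 a negative log2 fold change, with a median of 0.09, beside a median of 0.00 and 50.1% positive over all genes tested. A p that misses the threshold does not show equal levels, so each gene is given with the 95% interval of its fold change.

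**Figure D3:**
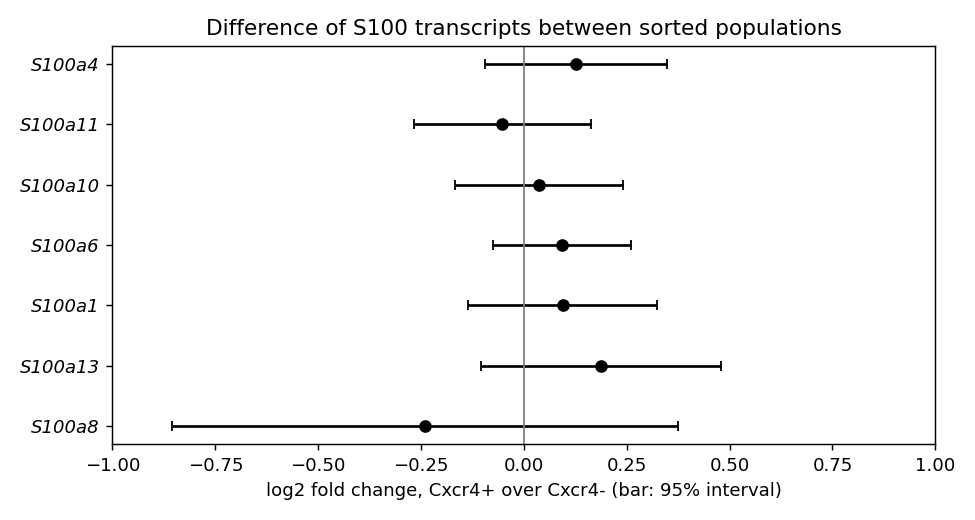
Log2 fold change, Cxcr4+ over Cxcr4-, of each S100 gene tested, with the 95% interval from edgeR as a bar. All 7 intervals include 0, and that of S100a8, from -0.85 to 0.37, is the widest.

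Among the intracellular members, S100a4 is the best known in tumours. It binds the tail of non-muscle myosin and promotes cell motility. S100a4 had 637, 680 and 662 FPKM in Cxcr4+ libraries, against 606, 676 and 525 FPKM in Cxcr4- libraries. The groups overlapped, since Cxcr4- replicate 2 stood above 2 of the 3 Cxcr4+ libraries, and Cxcr4- replicate 3 was the lowest of the 6. Means were 660 ± 21.8 FPKM in Cxcr4+ cells and 602 ± 75.2 FPKM in Cxcr4- cells (SD, n = 3 each). The log2 fold change of S100a4 was 0.13 (SE 0.09), and its interval ran from 0.937-fold to 1.27-fold (edgeR adjusted p = 0.999). Without Cxcr4- replicate 3 it was 0.05, and with the libraries numbered 1 and 3 alone it was 0.19. The predicted gene Gm42674 overlaps S100a4 on the same strand and had 0 counts in every library.

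S100a11, or calgizzarin, pairs with annexin A1 and takes part in membrane repair and growth control. S100a11 had 523, 640 and 608 FPKM in Cxcr4+ libraries, against 596, 670 and 564 FPKM in Cxcr4- libraries. In both groups replicate 2 was the highest, and the groups overlapped over most of their range. The means of 590 ± 60.4 FPKM in Cxcr4+ cells and 610 ± 54.3 FPKM in Cxcr4- cells (SD, n = 3 each) gave a log2 fold change of -0.05 (SE 0.09), with an interval from 0.831-fold to 1.12-fold (edgeR adjusted p = 0.9997). Its sign turned when Cxcr4+ replicate 1 was left out, to 0.01.

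S100a10, or p11, is the member that has lost calcium binding. It is held in an active shape and joins annexin A2 in a heterotetramer that binds plasminogen at the cell surface and the scaffold protein Ahnak inside. S100a10 had 241, 230 and 251 FPKM in Cxcr4+ libraries, against 234, 244 and 225 FPKM in Cxcr4- libraries. The values of the groups interleaved, and the highest library was 1.11 times the lowest, the smallest such ratio among the 7 members with counts. Means were 241 ± 10.2 FPKM in Cxcr4+ cells and 234 ± 9.24 FPKM in Cxcr4- cells (SD, n = 3 each). The log2 fold change was 0.04 (SE 0.09), with an interval from 0.890-fold to 1.18-fold (edgeR adjusted p = 0.9997), and it became -0.01 without Cxcr4+ replicate 3 and 0.09 with the libraries numbered 1 and 3 alone.

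S100a6, or calcyclin, binds the ubiquitin-linked proteins Cacybp and Sugt1 and is known from dividing cells. S100a6 had 141, 160 and 149 FPKM in Cxcr4+ libraries, against 133, 151 and 138 FPKM in Cxcr4- libraries. The groups overlapped, with Cxcr4- replicate 2 above Cxcr4+ replicates 1 and 3. The means were 150 ± 9.38 FPKM in Cxcr4+ cells and 140 ± 9.31 FPKM in Cxcr4- cells (SD, n = 3 each). S100a6 was steady within groups after scaling: the SD of its scaled log2 counts within groups was at percentile 1.46 among the 6303 genes tested whose mean reached 5 FPKM. Its log2 fold change was 0.09 (SE 0.07), with an interval from 0.950-fold to 1.20-fold (edgeR adjusted p = 0.999).

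S100a1 is known from heart and skeletal muscle, where it regulates the calcium channels and pumps of the sarcoplasmic reticulum. S100a1 had 89.3, 90.7 and 89.2 FPKM in Cxcr4+ libraries, against 86.9, 90.8 and 73.7 FPKM in Cxcr4- libraries. Only Cxcr4- replicate 3 stood clearly below the rest. The means were 89.7 ± 0.869 FPKM in Cxcr4+ cells and 83.8 ± 8.97 FPKM in Cxcr4- cells (SD, n = 3 each), with a log2 fold change of 0.09 (SE 0.10, interval 0.911-fold to 1.25-fold, edgeR adjusted p = 0.9997). Without that library the log2 fold change was 0.02, and with the libraries numbered 1 and 3 alone it was 0.14.

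S100a13 takes part in the export of Fgf1 and interleukin 1 alpha, proteins that leave cells without a signal peptide. S100a13 had 25.3, 21.5 and 23.5 FPKM in Cxcr4+ libraries, against 19.99, 21.3 and 20.4 FPKM in Cxcr4- libraries. It was the 1 member of the 7 whose groups did not overlap, by 21.5 FPKM in the lowest Cxcr4+ library against 21.3 FPKM in the highest Cxcr4- library; such separation was seen in 10.4% of all genes tested. Counting error alone is wider than that gap: the 95% exact Poisson interval of Cxcr4+ replicate 2 ran from 18.8 to 24.5 FPKM and that of Cxcr4- replicate 2 from 18.5 to 24.3 FPKM, with counts divided by 4. Means were 23.4 ± 1.90 FPKM in Cxcr4+ cells and 20.5 ± 0.655 FPKM in Cxcr4- cells (SD, n = 3 each). The log2 fold change was 0.19 (SE 0.12), the largest positive value among the members, with an interval from 0.931-fold to 1.39-fold (edgeR adjusted p = 0.999). Leaving out Cxcr4+ replicate 1 gave 0.11, leaving out Cxcr4+ replicate 2 gave 0.28, and the libraries numbered 1 and 3 alone gave 0.27. S100a1 and S100a13 start close together on opposite strands, and the sources used here do not say whether the counting used strand.

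The calprotectin subunits stood at the foot of the order. S100a8 had 8.01, 4.99 and 5.04 FPKM in Cxcr4+ libraries, against 7.71, 8.08 and 5.55 FPKM in Cxcr4- libraries. The groups overlapped: Cxcr4+ replicate 1 lay with the high Cxcr4- libraries, and the other 2 Cxcr4+ libraries lay below all others. These values rest on 351, 204 and 207 counts in Cxcr4+ libraries and 305, 314 and 202 counts in Cxcr4- libraries, and the 95% exact Poisson interval of Cxcr4+ replicate 2 ran from 3.72 to 6.57 FPKM. Means were 6.02 ± 1.73 FPKM in Cxcr4+ cells and 7.12 ± 1.37 FPKM in Cxcr4- cells (SD, n = 3 each). The log2 fold change of S100a8 was -0.24 (SE 0.26), with an interval from 0.553-fold to 1.30-fold (edgeR adjusted p = 0.9997). It had the largest standard error of the 7 members: the range over leave-one-out fits was -0.52 to -0.09, with -0.52 reached without Cxcr4+ replicate 1, and with the libraries numbered 1 and 3 alone the value was -0.04.

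S100a9, the partner that S100a8 needs to form calprotectin, was listed at 0 counts in every Cxcr4+ and every Cxcr4- library. A count of 0 allows up to 3 fragments, or 12 counts, per library, which is 0.215 to 0.258 CPM (counts scaled to library total) over the 6 libraries. No fold change, and no ratio of S100a8 to S100a9, can be given. In an estimated table an exact 0 can be a failed estimate. Of 76 ribosomal protein genes, 1 was listed at 0 everywhere, and it was Rpl10l, a copy known from testis, named here after its value was seen. Of 21789 protein coding genes, 6049 were at 0 in every library. Neither count shows whether the estimate of S100a9 itself failed.

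S100a8 and S100a9 are high in neutrophils and in classical monocytes, so the markers of both were set beside S100a8. Of 16 neutrophil markers, Camp, Ngp and Ctsg were at 0 counts in every library, and Ly6g, Ltf, Mmp8, Retnlg, Elane and Mpo had at most 18 counts in any. The summed level of the list was 373 to 563 FPKM in Cxcr4+ libraries, against 665 to 932 FPKM in Cxcr4- libraries, and most of it was Lcn2, a siderophore-binding protein that activated macrophages also make (443 ± 98.1 FPKM in Cxcr4+ cells and 738 ± 140 FPKM in Cxcr4- cells, SD, n = 3 each). Of the 7 neutrophil markers tested, 0 were called, 2 had positive and 5 negative log2 fold changes, and the median was -0.28; it was -0.03 without Cxcr4+ replicate 2 and 0.07 with the libraries numbered 1 and 3 alone. Lcn2 had the smallest p (log2 fold change -0.74, edgeR adjusted p = 0.953). After it came Cxcr2 at -1.66, Mmp9 at -0.28, Mcemp1 at 0.10 and Csf3r at 0.11. Cxcr2 was low, with 12, 41 and 32 counts in Cxcr4+ libraries, against 52, 145 and 54 counts in Cxcr4- libraries. All 10 monocyte markers were tested, 0 were called, 4 were positive and 6 negative, with a median of -0.30 and a summed level of 68.5 to 76.8 FPKM in Cxcr4+ libraries, against 75.5 to 91.7 FPKM in Cxcr4- libraries. Hp, haptoglobin, averaged 11.6 ± 1.51 FPKM in Cxcr4+ cells and 21.7 ± 2.65 FPKM in Cxcr4- cells (SD, n = 3 each; log2 fold change -0.90, edgeR adjusted p = 0.332), and DESeq2 called it lower in Cxcr4+ cells (adjusted p = 6.759e-05). The monocyte genes F13a1, Itgal and Chil3 had log2 fold changes of -1.03, -0.34 and -0.44. F13a1 was low, at a mean of 0.363 FPKM in Cxcr4+ cells and 0.743 FPKM in Cxcr4- cells. Vcan, a matrix proteoglycan, ran the other way at 1.69, and at 0.72 without Cxcr4+ replicate 1. Vcan was also low, at a mean of 0.152 FPKM in Cxcr4+ cells and 0.0476 FPKM in Cxcr4- cells. The part of neutrophils or monocytes in the values of S100a8 was not tested.

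The other S100 genes of the table were low, each under 5 FPKM in every library. Of 9 listed, 7 had a count above 0, 5 passed the filter on low counts and 0 were called, with 2 positive and 3 negative log2 fold changes. S100g, or calbindin D9k, a calcium carrier of gut epithelium, had 0.543, 4.29 and 0.794 FPKM in Cxcr4+ libraries, against 1.82, 0.604 and 0.279 FPKM in Cxcr4- libraries, so its Cxcr4+ mean rests on replicate 2. S100a7a, a relative of psoriasin, had 1.04 ± 0.186 FPKM in Cxcr4+ cells and 0.991 ± 0.417 FPKM in Cxcr4- cells (SD, n = 3 each). S100a3 averaged 0.136 FPKM in Cxcr4+ cells and 0.169 FPKM in Cxcr4- cells, although its gene lies beside S100a4. S100a5 and S100b had at most 7 counts in any library, and S100a7l2 and S100z had none. S100a2, which is not on the list, had 4 counts in 1 library.

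S100a14 and S100a16, which are known from epithelia, had few counts. S100a14 had 4, 11 and 0 counts in Cxcr4+ libraries, against 9, 19 and 30 counts in Cxcr4- libraries. S100a16 had 9, 12 and 0 counts in Cxcr4+ libraries, against 16, 15 and 28 counts in Cxcr4- libraries. The groups overlapped for S100a14 and did not for S100a16, and edgeR called neither (adjusted p = 0.999 each). Of 14 epithelial markers, 10 were tested, 0 were called and all 10 had negative log2 fold changes, with a median of -1.08; the summed level was 1.94 to 3.50 FPKM in Cxcr4+ libraries, against 3.80 to 6.81 FPKM in Cxcr4- libraries, and Tff1 and Tff2 were at 0. Among them Lgals4, Epcam, Elf3, Krt18 and Krt19 had log2 fold changes of -1.02, -1.19, -1.44, -1.56 and -1.13. The part of epithelial RNA in the values of S100a14 and S100a16 was not tested.

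S100a4, S100a6, S100a10 and S100a11 are also made by fibroblasts, and the matrix markers ran the other way from the epithelial ones. Of 17 fibroblast and matrix markers, 14 were tested, 0 were called and all 14 had positive log2 fold changes, with a median of 1.74. That median was 0.41 without Cxcr4+ replicate 1, the library in which Col1a1 had 5.83 FPKM, against 0.527 and 1.13 FPKM in the other Cxcr4+ libraries. Their summed level was 6.84 to 33.9 FPKM in Cxcr4+ libraries, against 3.55 to 9.12 FPKM in Cxcr4- libraries, with Lum at 0. Sparc, Col6a1 and Col3a1 had log2 fold changes of 1.91, 2.38 and 2.12 (edgeR adjusted p = 0.953 each), and DESeq2 called these 3 higher in Cxcr4+ cells (adjusted p = 0.00644, 0.0254 and 0.0309). Without Cxcr4+ replicate 1 the log2 fold changes of Sparc, Col6a1 and Col3a1 were 1.03, 1.47 and 0.98. Col6a2 and Col5a1 had 2.91 and 2.40 with all 6 libraries, and 1.56 and 0.72 without that library. The 4 S100 genes each stood at 133 to 680 FPKM in every library, above the sum of the whole matrix list, and the part of fibroblast RNA in them was not tested. Of 9 lymphocyte markers, 1 was tested (Cd79a, log2 fold change 0.37, not called, and -0.54 without Cxcr4+ replicate 3), and the list summed to 0.156 to 0.667 FPKM in Cxcr4+ libraries, against 0.264 to 0.382 FPKM in Cxcr4- libraries. Of the macrophage markers 10 of 13 were tested, 0 were called, 6 were positive and 4 negative, with a median of 0.16 and a sum of 7375 to 9205 FPKM in Cxcr4+ libraries, against 6570 to 7841 FPKM in Cxcr4- libraries. Those of smallest p were C1qb, Fcgr1, C1qa, Mertk and Lyz2, with log2 fold changes of 3.75, 0.52, 2.49, -0.32 and 0.21. C1qb had 84, 27 and 12 counts in Cxcr4+ libraries, against 4, 4 and 0 counts in Cxcr4- libraries.

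On the receiving side, all 10 listed cell surface receptors of extracellular S100 proteins were tested and 0 were called. Of these, 8 had positive and 2 negative log2 fold changes, with a median of 0.09. Tlr4, the endotoxin receptor that calprotectin also engages, had 2.98, 3.60 and 3.50 FPKM in Cxcr4+ libraries, against 2.90, 0.410 and 2.79 FPKM in Cxcr4- libraries. Cxcr4- replicate 2 stood far below the other 5, and its groups did not overlap. Tlr4 had a log2 fold change of 0.69 (SE 0.61, edgeR adjusted p = 0.9997), and of 0.20 without Cxcr4- replicate 2. Its co-receptor Cd14 was far higher, at 558 FPKM in Cxcr4+ cells and 546 FPKM in Cxcr4- cells. Ager, the other classical receptor, had 0.300, 0.450 and 0.261 FPKM in Cxcr4+ libraries, against 0.531, 0.557 and 0.393 FPKM in Cxcr4- libraries, levels that overlapped (log2 fold change -0.55, SE 0.34).

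Cd36, a scavenger receptor that binds calprotectin carrying arachidonic acid, had the smallest p of the receptors. Cd36 had 22.01, 13.7 and 18.002 FPKM in Cxcr4+ libraries, against 10.2, 7.73 and 10.3 FPKM in Cxcr4- libraries. Every Cxcr4+ library was above every Cxcr4- library, and groups without overlap, in either direction, were seen in 10.4% of all genes tested. The log2 fold change was 0.92 (SE 0.22), which edgeR did not call (adjusted p = 0.907) and DESeq2 did (adjusted p = 0.00973). Alcam, an adhesion molecule named as a calprotectin receptor, averaged 30.2 ± 2.06 FPKM in Cxcr4+ cells and 25.1 ± 1.41 FPKM in Cxcr4- cells (SD, n = 3 each), also without overlap (log2 fold change 0.26, SE 0.07, edgeR adjusted p = 0.953). Bsg, or basigin, averaged 193 ± 18.5 FPKM in Cxcr4+ cells and 174 ± 24.3 FPKM in Cxcr4- cells (SD, n = 3 each), with a log2 fold change of 0.13 and overlapping groups.

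**Figure D4:**
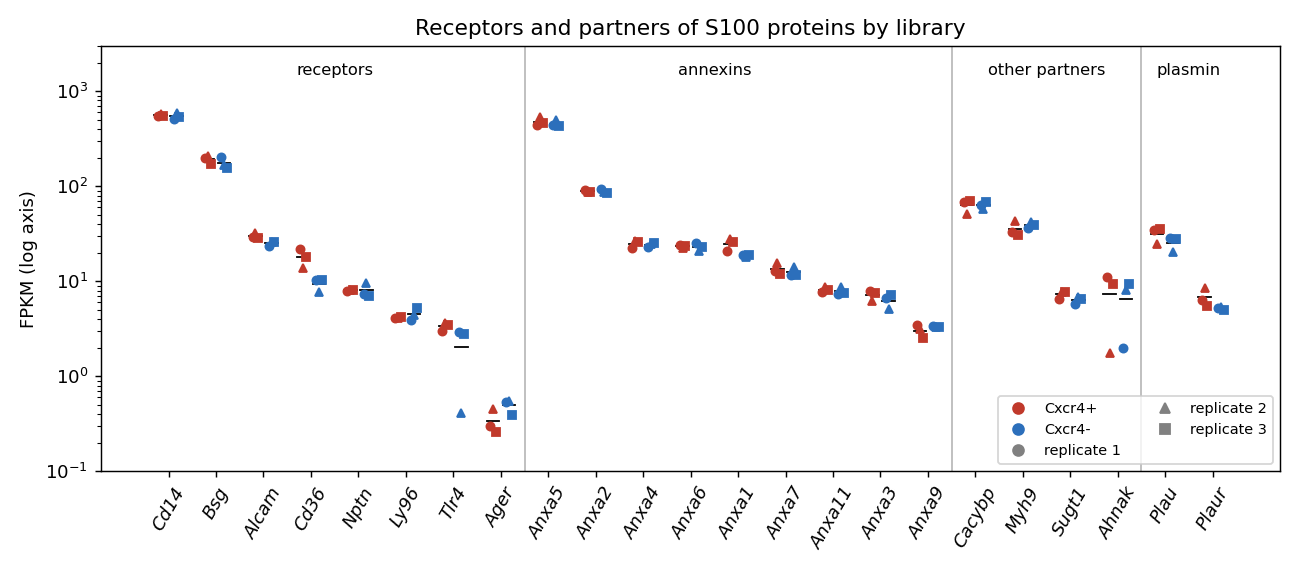
FPKM of receptors, annexins, other partners and plasminogen activation genes on a log axis, with Cxcr4+ libraries in red left of Cxcr4- libraries in blue and bars at the mean of 3. Cd36, Alcam, Tlr4, Anxa1 and Plaur are among the genes whose groups do not overlap, as in 10.4% of all genes tested. The low points of Tlr4 (0.410 FPKM in Cxcr4- replicate 2) and Ahnak belong to single libraries.

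Annexins are calcium-dependent membrane proteins, and S100a10 and S100a11 bind the N-terminal tails of Anxa2 and Anxa1. Of 12 annexins, 9 were tested, 0 were called, and 7 had positive and 2 negative log2 fold changes, with a median of 0.05. Anxa2 had 92.4, 87.8 and 86.8 FPKM in Cxcr4+ libraries, against 93.4, 87.4 and 85.4 FPKM in Cxcr4- libraries, which overlapped throughout. The ratio of S100a10 to Anxa2, in FPKM, was 2.60, 2.62 and 2.89 in Cxcr4+ libraries, against 2.50, 2.79 and 2.64 in Cxcr4- libraries. By FPKM, S100a10 thus stood above its partner in all 6 libraries. By estimated counts, which are not scaled to gene length, S100a10 stood below Anxa2 in all 6. In Cxcr4+ replicate 1, for example, S100a10 had 18395 counts and Anxa2 had 21749. The order of these genes therefore depends on the scaling to gene length. The mean log2 ratios were 1.43 in Cxcr4+ cells and 1.40 in Cxcr4- cells, a difference of 0.03 (two-sided exact permutation p = 0.70, where 3 against 3 libraries allow no p under 0.10).

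Anxa1, which dampens neutrophil recruitment and is the partner of S100a11, had the smallest p of the annexins. Anxa1 had 20.8, 27.7 and 26.0 FPKM in Cxcr4+ libraries, against 18.8, 17.9 and 19.1 FPKM in Cxcr4- libraries. The groups did not overlap, while those of S100a11 did. Anxa1 had a log2 fold change of 0.41 (SE 0.12), which passed no threshold after adjustment (edgeR adjusted p = 0.953). Of the others, Anxa5 was the most abundant, with 478 ± 50.3 FPKM in Cxcr4+ cells and 455 ± 34.2 FPKM in Cxcr4- cells (SD, n = 3 each). Anxa3, Anxa7, Anxa9, Anxa5 and Anxa11 had log2 fold changes of 0.19, 0.10, -0.15, 0.07 and 0.05.

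Of 14 other intracellular partners, 13 were tested and 0 were called, with 7 positive and 6 negative log2 fold changes and a median of 0.00. Myh9, the non-muscle myosin heavy chain bound by S100a4, averaged 35.7 ± 6.27 FPKM in Cxcr4+ cells and 39.3 ± 3.16 FPKM in Cxcr4- cells (SD, n = 3 each; log2 fold change -0.15). Cacybp, the calcyclin-binding protein, averaged 63.4 ± 10.5 FPKM in Cxcr4+ cells and 63.3 ± 5.93 FPKM in Cxcr4- cells (SD, n = 3 each), and the groups overlapped. Ahnak, the giant scaffold bound by S100a10 with Anxa2, had 10.99, 1.74 and 9.43 FPKM in Cxcr4+ libraries, against 1.99, 8.08 and 9.43 FPKM in Cxcr4- libraries. Its low libraries were Cxcr4+ replicate 2 and Cxcr4- replicate 1, 1 in each group. S100a10 had 230 and 234 FPKM in these. It had 241 and 251 FPKM in Cxcr4+ replicates 1 and 3, and 244 and 225 FPKM in Cxcr4- replicates 2 and 3. The members of smallest p were Ryr1, Sugt1, Myh9, Ppfibp1 and Rac2, with log2 fold changes of 0.48, 0.19, -0.15, 0.15 and -0.10. Ryr1 was low, at a mean of 0.205 FPKM in Cxcr4+ cells and 0.147 FPKM in Cxcr4- cells.

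S100a10 with Anxa2 is a plasminogen receptor of macrophages, and the genes of plasminogen activation were read for that reason. Of 9 listed, 7 were tested and 0 were called, with 5 positive and 2 negative log2 fold changes and a median of 0.27, which moved beyond its spread in 12 of 18 alternatives, down to 0.07; Plg itself, made by liver, was at 0. Plaur, the urokinase receptor, had 6.36, 8.44 and 5.55 FPKM in Cxcr4+ libraries, against 5.29, 5.39 and 5.04 FPKM in Cxcr4- libraries. Its groups did not overlap, and the log2 fold change was 0.36 (SE 0.15, edgeR adjusted p = 0.999). Plau, urokinase, averaged 31.7 ± 6.00 FPKM in Cxcr4+ cells and 25.5 ± 4.49 FPKM in Cxcr4- cells (SD, n = 3 each), with overlap. Plgrkt and Eno1 had log2 fold changes of 0.08 and -0.06.

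Transcription factors linked to S100a8 and S100a9 were all tested, 8 of 8, and 0 were called, with 4 positive and 4 negative log2 fold changes and a median of 0.03. By FPKM several stood above S100a8. Spi1, which encodes PU.1, averaged 43.1 ± 1.34 FPKM in Cxcr4+ cells and 40.2 ± 2.45 FPKM in Cxcr4- cells (SD, n = 3 each). Cebpb averaged 80.5 FPKM in Cxcr4+ cells and 80.3 FPKM in Cxcr4- cells. Stat3 and Cebpa had lower means in Cxcr4+ cells without overlap of the groups, with log2 fold changes of -0.16 and -0.18, Cebpd had 0.32 and Cebpe had -0.18; edgeR called 0 of these.

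Calcium-binding proteins and alarmins outside the family gave a similar count. Of 14 other EF-hand genes, 14 were tested and 0 called, with 9 positive and 5 negative log2 fold changes and a median of 0.09. Among those of smallest p were the calpains Capn2 and Capn1, at 0.26 and -0.26, Aif1 at 0.68 and Ncs1 at 0.33. Of 7 other alarmins, 6 were tested and 0 called, with 3 positive and 3 negative and a median of -0.10, which turned to 0.11 without Cxcr4+ replicate 2 and to 0.05 without Cxcr4- replicate 1. Hmgb2, a chromatin protein, averaged 43.3 ± 5.11 FPKM in Cxcr4+ cells and 30.6 ± 2.25 FPKM in Cxcr4- cells (SD, n = 3 each; log2 fold change 0.50, edgeR adjusted p = 0.953), with no overlap of the groups. Its relative Hmgb1 had -0.39, between -0.64 and -0.09 over leave-one-out fits, and Lgals3, galectin 3, had 0.10. The heat shock genes Hspa1a and Hspa1b had -0.64 and -0.22; Hspa1b had 50.3, 15.8 and 44.5 FPKM in Cxcr4+ libraries, against 57.9, 17.7 and 52.9 FPKM in Cxcr4- libraries, and was low in the library numbered 2 of each group.

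Among genes that are not members but lie within 50 kb of one, 8 were tested and 0 were called. They were Ilf2, Chtop, Snapin and Npr1 beside S100a1, and S100a3, S100a7a, S100a14 and S100a16 within the cluster. Chtop, the nearest to S100a1, averaged 21.1 FPKM in Cxcr4+ cells and 19.9 FPKM in Cxcr4- cells, a level close to that of S100a13.

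Likeness between genes was measured as the root mean square difference of log2 counts, scaled to library size, over the 6 libraries, each gene centred on its own mean, among genes whose mean reached 5 FPKM. S100a1 and S100a4 were each other's nearest member, with a difference of 0.04. Among all genes, those nearest to S100a1 were Ubap1, Tes and S100a4, and those nearest to S100a4 were Trib3, Klf16 and Ap1s1. The nearest to S100a6 were Usp14, Stom and Psmb7, to S100a10 Papola, Timm44 and Gm16286, to S100a11 Gm4735 and H2aj, and to S100a13 Basp1, Gabarap and Vps72. S100a8 had no gene as close: its nearest were Gm6344, Chmp3 and Gm43712 at 0.11 to 0.13, and its nearest member, S100a1, was at 0.30, beside a median over all genes of 0.35. S100a8 rested on 202 to 351 counts per library. The SD of its scaled log2 counts within groups was at percentile 89.4 among these genes, against 39.6 or lower for the other members tested. Whether its distance from other genes comes from this spread was not tested. The 6 points of each gene share library and depth, so the likeness is a description.

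**Figure D5:**
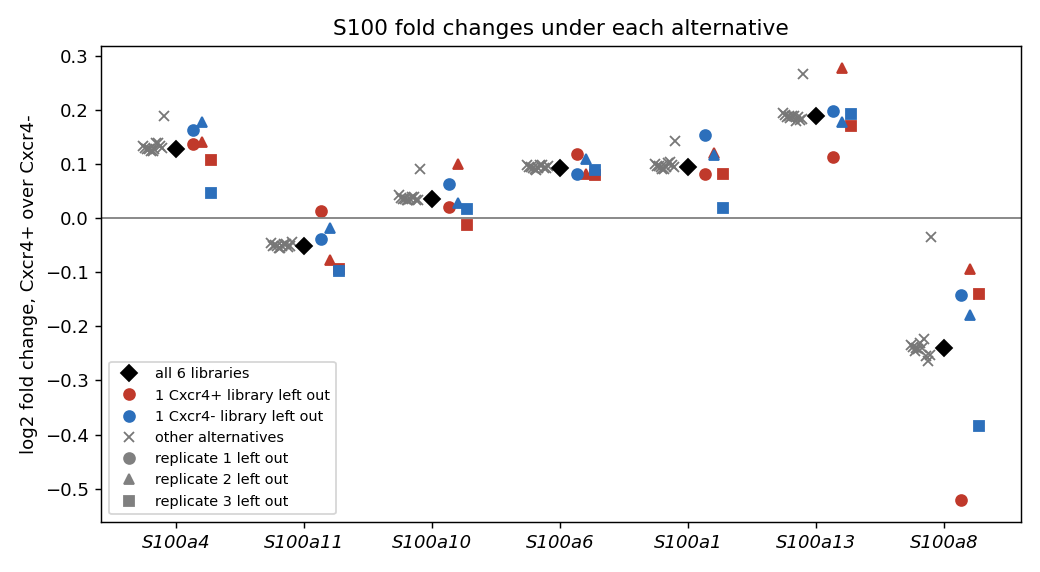
Log2 fold change, Cxcr4+ over Cxcr4-, of each S100 gene tested with all 6 libraries (black diamonds), with 1 library left out (red for Cxcr4+ and blue for Cxcr4-, shapes giving the replicate) and under other tests, scalings and filters (grey crosses). The crosses lie close to the diamonds save 1 for most genes, the fit with the libraries numbered 1 and 3 alone, and leaving out 1 library moves S100a8 the most, from -0.24 to between -0.52 and -0.09.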

How the data were processed

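There were 6 RNA libraries. The tools cutadapt, HISAT2 and StringTie and the build GRCm39 are named per the submitters' processing notes; the sources used here do not give their versions or the use of strand. The authors deposited estimated counts, already whole numbers, and FPKM, scaled to gene length and depth, for 53647 genes; where the count was 0, the FPKM was read as 0. Of the counts from 1 to 20, 43.2% were multiples of 4, against 25% if spread evenly, so counting intervals use counts divided by 4 and cover counting error only. No library pair differed by as little as sampling noise.

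The quasi-likelihood test of edgeR 4.0.16 (R 4.3.3, legacy dispersions) compared the groups, with no other term. Low counts were removed by filterByExpr (minimum count 10 and total 15), which left 16031 genes (0.0408 to 0.0581% of each library's counts were lost), and scaling was by TMM; the biological coefficient of variation was 0.275. P-values were adjusted by Benjamini-Hochberg over all genes tested, with a threshold of 0.05. The standard error is the size of the log2 fold change over the square root of F. The procedure was also run on counts simulated from the dispersions fitted to these data, and the outcome is not given here. Changes as small as those of the members were not simulated. Alternatives were DESeq2 1.42.0, limma 3.58.1 on log2(FPKM + 1) and log2(FPKM + 0.1), other scalings and filters, edgeR's bias-adjusted method, counts divided by 4, the replicate number as a block, and leaving out each library; the libraries numbered 1 and 3 alone were added after seeing the data.

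The members and the gene lists were chosen with earlier results of these data known, so no test was run over a list. Named were all members, all listed S100 genes, up to 5 tested genes of smallest p per list with set partners, tested genes within 50 kb of a member, and the 3 genes most like each member. A few genes that this rule names are not reported here. Some further levels (Cd14, Cebpb, markers at or near 0) were named after their values were seen. Promoters came from RefSeq on GRCm38.p6. Figures were drawn with matplotlib 3.10.9.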

Additional observations from a re-analysis of the deposited data

How the results depend on the processing

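The count of S100 genes called was 0 under all 20 alternatives tried, and the lowest adjusted p of a member in any of them was 0.624. The count over the whole table was less steady: 53 under DESeq2, 2 under limma on log2(FPKM + 1), 0 with the replicate block, and 1 to 9 when 1 library was left out; the cause was not tested. Leaving out 1 library turned the sign of S100a10 (-0.0134 to 0.0991), S100a11 (-0.0971 to 0.0132) and the difference in the log2 ratio of S100a10 to Anxa2 (-0.0144 to 0.0736), none of which was called; the other 5 members tested kept their sign in every fit. Log2 fold changes near 0 also turned for some partners. The Ahnak log2 fold change was -0.089 where the libraries numbered 2 formed a block and -0.1999 to 0.6956 over leave-one-out fits. The Cacybp log2 fold change was -0.0022 with at least 50 counts in 3 libraries and with counts divided by 4, -0.0069 and -0.0072 under limma with pseudocounts of 1 and 0.1, -0.0128 with the replicate block, -0.013 with number 2 as a block, and -0.0995 to 0.1597 over leave-one-out fits. The Anxa2 log2 fold change was 0.0036 under DESeq2, 0.0012 with library totals alone, 0.0045 and 0.0046 under limma, and -0.0482 to 0.0666 over leave-one-out fits. Over leave-one-out fits Plgrkt was -0.0005 to 0.2361, Cebpe -0.3345 to 0.1925, Hspa1b -0.6094 to 0.1529, Mcemp1 -0.0306 to 0.1977 and Cd79a -0.5374 to 0.7449. The Cebpe log2 fold change was 0.1632 with the libraries numbered 1 and 3 alone.

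Whether same-numbered libraries were paired is not in the labels, and the data give only a hint. The correlations of their deviations from the group means were 0.038, 0.141 and 0.045 for numbers 1, 2 and 3. Those of unlike numbers ran from -0.089 to 0.052. Every library correlated best with its own number except Cxcr4+ replicate 1 and Cxcr4- replicate 3. The replicate block called 0 S100 genes and changed the count of all calls as given above, and the paired difference in the log2 ratio of S100a10 to Anxa2 was 0.03 (exact sign-flip permutation p = 0.75, the smallest possible being 0.25). The ratio of S100a8 to S100a9 was not run, since S100a9 was at 0. Of 250 alternatives to list medians, 32 moved by more than the spread between libraries, and 12 of these were of the plasminogen list (0.1253 to 0.3928 over leave-one-out fits). Over leave-one-out fits the median changed sign for transcription factors (-0.0999 to 0.1665), other alarmins (-0.2027 to 0.1083) S100 genes outside the members (-0.7781 to 0.0798), the 1 lymphocyte marker tested and intracellular partners (-0.079 to -0.0062), and ran from 0.4093 to 2.1107 for matrix markers.

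With 3 libraries a group, the 95% interval of S100a6 ran from 0.950-fold to 1.20-fold and that of S100a8 from 0.553-fold to 1.30-fold.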
